A study of Rattus norvegicus with 6 samples.

Results

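Circadian clock genes were followed in cultured rat articular cells, 10 in all: Arntl, Clock, Per1, Per2, Per3, Cry1, Cry2, Nr1d1, Nr1d2 and Dbp. They were chosen by name, as rows of the deposited table that carry these symbols, and all 10 were found among its 18420 genes and all 10 passed the filter on low counts that left 13250 genes for testing. RNA-seq libraries came from primary cells labelled chondrocytes, isolated from wild-type male Sprague-Dawley rats of 180 to 220 g and used at the third passage. The TNF-α group (n = 3) received TNF-α at 10 ng/mL for 6 h, and the TNF-α+NFL group (n = 3) received the same and then Nanofat lysate (NFL, the cleared freeze–thaw supernatant of digested fat cells) for 24 h. The sample labels give 6 h and 30 h as the times, 24 h apart, so lysate and harvest time cannot be told apart in any difference below. Untreated cells (the NC group) were not analysed here. The time of day at harvest is not given in the sources used here. Every direction follows the deposited labels. Column headings elsewhere in the material of the study run opposite to these labels, so the labels of the groups may be exchanged, and the sign of every difference below would then turn.

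The clock is a loop of transcription. CLOCK and BMAL1, the protein of Arntl, form a dimer that binds E-box sequences and switches on the Per, Cry, Nr1d and Dbp genes. PER and CRY proteins then inhibit the dimer, the NR1D receptors (REV-ERBs) repress Arntl through ROR elements, and DBP acts on D-box sequences. In a running clock, Arntl therefore peaks at the opposite time of day to Nr1d1 and Dbp. Cartilage has its own clock, and mice that lack Bmal1 in chondrocytes develop cartilage damage. In cultured cells, serum, fresh medium and glucocorticoids can set the phase of the clock.

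These 3 binding elements, and the CRE bound by CREB, were looked for on both strands of the RefSeq promoter windows of GRCr8, 250 bases before to 50 after a transcript start, which hold 9 of the 10 genes in 11 windows and list Arntl under its newer symbol Bmal1. The E-box was spelled CACGTG, the D-box TTATGTAA or TTACGTAA, the ROR element AAGGTCA or TAGGTCA, and the CRE TGACGTCA. Other spellings of these elements were not searched for, so a gene without a match may still hold a variant. The motifs found did not overlap each other. The E-box, D-box and ROR element were each present in 1 clock gene, the CRE in 0, and the other 6 genes with a window, Per1 and Dbp among them, held none of these letters. The 3 stretches are shown as the matches found. The motif is in capitals and each stretch is read 5′ to 3′ on the strand of the gene.

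Arntl ROR element, chr1:176766282-176766348, plus strand: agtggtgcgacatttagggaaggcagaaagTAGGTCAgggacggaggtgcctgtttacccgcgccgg
Nr1d1 E-box, chr10:84229610-84229675, minus strand: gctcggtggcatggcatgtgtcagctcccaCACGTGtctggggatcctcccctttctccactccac
Per2 D-box, chr9:99497148-99497215, minus strand: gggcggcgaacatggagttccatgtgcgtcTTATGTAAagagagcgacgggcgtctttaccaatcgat

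The ROR element of Arntl began 16 bases before the start, the E-box of Nr1d1 191 bases before a start and the D-box of Per2 192 bases before the start. Of all 33469 windows of the same length, 6.42% held such an E-box, 1.01% such a D-box, 7.07% such a ROR element and 1.83% such a CRE. A match in letters is a description and was not tested as a binding site, and the windows are of a newer build than the Rnor_6.0 named for the files.

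None of the 10 clock genes differed between the groups at an adjusted p under 0.05 in edgeR's quasi-likelihood test over all genes, where 0.611% of the 13250 genes tested did so. An unadjusted p under 0.05 was reached by 2 of the 10, Per1 (higher under the TNF-α+NFL label) and Dbp (lower), against 11.1% of all genes tested. In edgeR fits that left out 1 library, Per1 stayed under 0.05 in all 6. Dbp did not without TNF-α replicate 1 or 3 or TNF-α+NFL replicate 1 or 2 (unadjusted p = 0.056, 0.077, 0.11 and 0.13), and Clock and Cry2 joined Per1 without TNF-α replicate 1 (0.017 and 0.043), so that the count ran from 1 to 3. Over all genes the share under 0.05 was 20.3%, 7.94% and 9.35% without TNF-α replicates 1, 2 and 3 and 7.72%, 7.65% and 8.41% without TNF-α+NFL replicates 1, 2 and 3. DESeq2, which gives no adjusted p to genes its own count filter sets aside and gave one to 4 of the 10, and limma-voom called 0 as well (1.12% and 0.634% of all genes), with 1 and 2 genes at an unadjusted p under 0.05 (5.93% and 11% of all). The median log2 fold change was -0.0022 over the 10 genes and -0.0035 over all genes, and the median size of the difference, whatever its sign, was 0.050 and 0.068. Every 95% interval of the 10 fold changes lay between 0.815 and 1.23, and 8 of the 10 intervals included no difference. Counts were high enough for this width, at 245 to 1179 estimated counts of each gene in each library, out of 19344893 to 19725135. A bulk library averages over its cells, so a flat clock and cells out of phase with each other cannot be told apart. Neither can fewer cells of a type and less RNA per cell. The harvest labels lie 24 h apart, about the length of a circadian cycle. A running clock met at nearly the same phase in both groups could therefore also show little difference, and this was not tested.

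**Figure D1:**
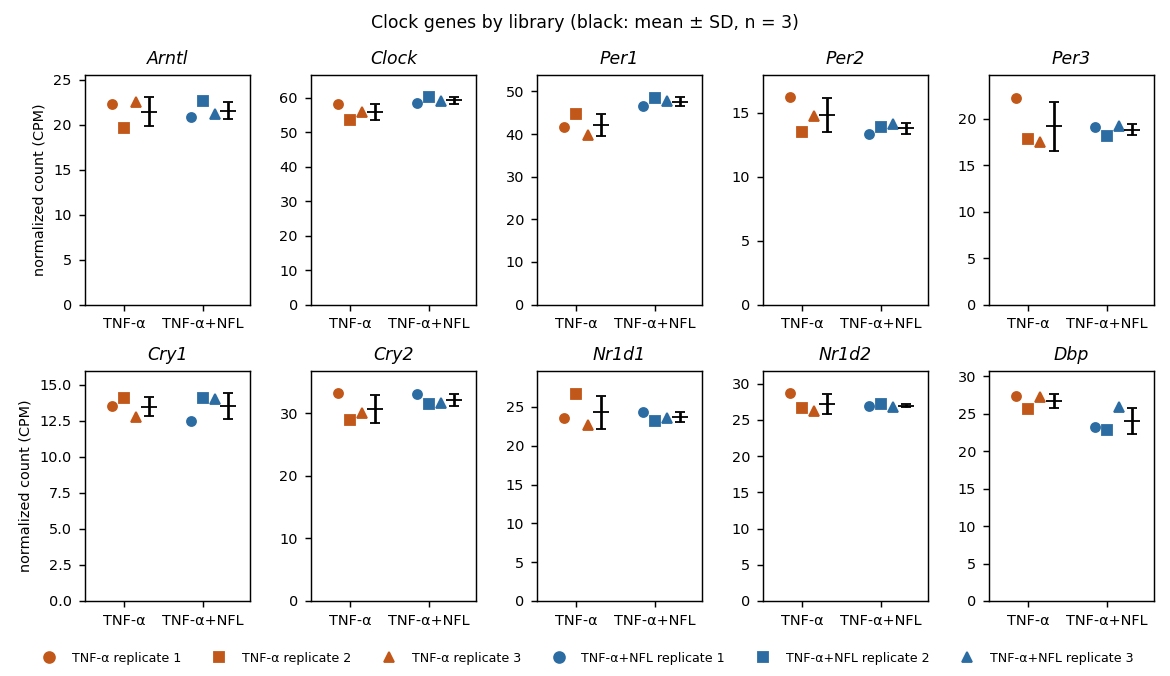
Normalized counts (CPM, y axis from 0) of each clock gene in the 3 TNF-α (orange) and 3 TNF-α+NFL (blue) libraries, with symbols for the replicate and mean ± SD in black. The groups lie apart for Clock and Per1 and overlap for the other genes, and no gene spans more than 1.27-fold from its lowest to its highest library.

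Arntl and Clock encode the activating pair of the loop. Arntl was at a normalized count (CPM, the count scaled to library size by the TMM method) of 22.3, 19.6 and 22.4 in TNF-α replicates 1, 2 and 3 and of 20.9, 22.6 and 21.1 in the TNF-α+NFL replicates, also in this order below. The TNF-α libraries held both its lowest value and values near its highest, so the groups overlapped, and the log2 fold change was 0.0061 (standard error, SE, 0.070, 95% interval -0.14 to 0.16, adjusted p = 0.99 from edgeR). Clock was at a CPM of 58.3, 53.6 and 55.9 in the TNF-α replicates and 58.4, 60.4 and 59.01 in the TNF-α+NFL replicates. All of its TNF-α+NFL libraries lay above all of its TNF-α libraries, but only by 58.4 against 58.3 at the nearest pair. Its log2 fold change was 0.084 (SE 0.047, 95% interval -0.017 to 0.19, adjusted p = 0.56).

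The period genes encode the inhibitory PER proteins, and Per1 and Per2 also respond quickly to signals from outside the cell. Per1 had the largest difference of the 10 genes, at a CPM of 41.8, 44.7 and 39.7 in the TNF-α replicates and 46.6, 48.6 and 47.8 in the TNF-α+NFL replicates. The groups did not overlap, as for 16.8% of all genes tested, and 2 of the 10 clock genes (Clock and Per1) were separated in this way. Its group means were 42.1 ± 2.54 and 47.6 ± 0.969 (SD, n = 3 each), a log2 fold change of 0.18 (SE 0.054, 95% interval 0.063 to 0.30, adjusted p = 0.21). The exact permutation test (two-sided) gave p = 0.10 for Per1 and for Clock, the smallest that 3 against 3 libraries allow.

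Per2, the least abundant of the family, was at a CPM of 16.2, 13.5 and 14.8 in the TNF-α replicates and 13.3, 13.9 and 14.1 in the TNF-α+NFL replicates. Its values in TNF-α replicates 1 and 3 were the highest and replicate 2 lay among the TNF-α+NFL libraries. The log2 fold change was -0.11 (SE 0.082, 95% interval -0.28 to 0.072, adjusted p = 0.70). Per3, a period gene that follows the clock closely in peripheral tissues, was at 22.2, 17.8 and 17.5 in the TNF-α replicates and 19.1, 18.1 and 19.2 in the TNF-α+NFL replicates. TNF-α replicate 1 stood above the other 5 libraries, which lay close together. Its log2 fold change was -0.026 (SE 0.088, adjusted p = 0.95) and turned to 0.092 without that library.

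The cryptochromes encode the partners of PER in repression. Cry1 was at a CPM of 13.5, 14.1 and 12.8 in the TNF-α replicates and 12.5, 14.1 and 14.0 in the TNF-α+NFL replicates, so that each group spanned nearly the same range. Its log2 fold change was 0.0064 (SE 0.080, 95% interval -0.17 to 0.18, adjusted p = 0.99). Cry2 was at 33.2, 28.9 and 30.1 in the TNF-α replicates and 33.1, 31.5 and 31.6 in the TNF-α+NFL replicates. TNF-α replicate 1 was level with the highest TNF-α+NFL library and the other TNF-α replicates lay below all 3 of them. Its log2 fold change was 0.064 (SE 0.061, adjusted p = 0.77).

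Nr1d1 and Nr1d2 encode REV-ERBα and REV-ERBβ, the repressors of Arntl. Nr1d1 was at a CPM of 23.6, 26.7 and 22.7 in the TNF-α replicates and 24.4, 23.3 and 23.5 in the TNF-α+NFL replicates. TNF-α replicate 2 was the highest for Nr1d1 and also the lowest for Arntl, and the TNF-α+NFL libraries lay between the extremes of the TNF-α group. The log2 fold change of Nr1d1 was -0.035 (SE 0.069, 95% interval -0.18 to 0.11, adjusted p = 0.91). Nr1d2 was at 28.7, 26.6 and 26.2 in the TNF-α replicates and 26.9, 27.2 and 26.8 in the TNF-α+NFL replicates, with a log2 fold change of -0.011 (SE 0.057, adjusted p = 0.97). Nr1d2 was the steadiest of the 10 genes, at 1.095-fold between its highest and lowest libraries.

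Dbp encodes a D-box activator that is read directly from the CLOCK and BMAL1 dimer and is among the most strongly cycling transcripts of many tissues. It was at a CPM of 27.4, 25.7 and 27.2 in the TNF-α replicates and 23.3, 22.8 and 25.97 in the TNF-α+NFL replicates. TNF-α+NFL replicates 1 and 2 were lower than every TNF-α library, while replicate 3 lay above TNF-α replicate 2. Group means were 26.8 ± 0.916 and 24.03 ± 1.69 (SD, n = 3 each), a log2 fold change of -0.16 (SE 0.065, 95% interval -0.29 to -0.016, adjusted p = 0.39). The exact permutation test (two-sided) for Dbp gave p = 0.20.

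**Figure D2:**
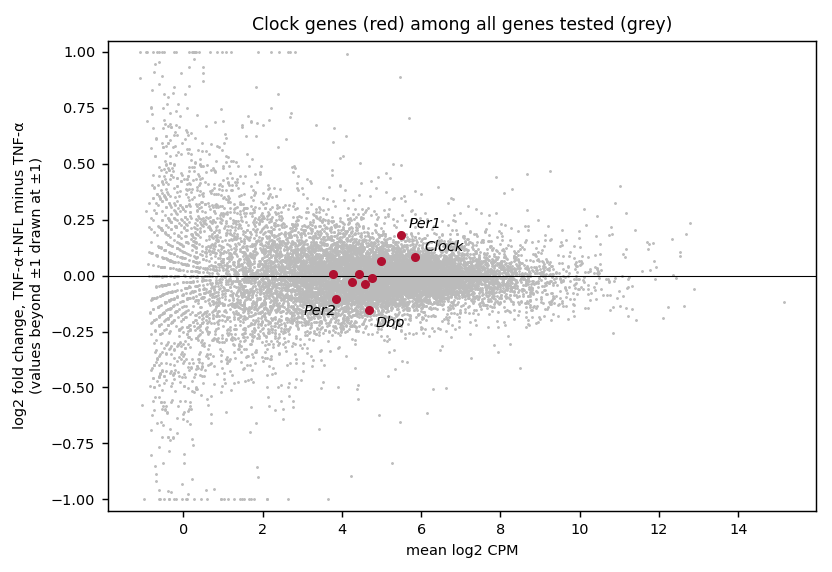
Log2 fold change between the groups (y axis) against mean log2 CPM (x axis) for all 13250 genes tested (grey) and the 10 clock genes (red, the 4 furthest from 0 labelled). The clock genes lie between -0.16 (Dbp) and 0.18 (Per1), among the grey points.

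The clock genes also varied between libraries of 1 group. Within the TNF-α group the coefficient of variation of the 10 genes ran from 3.42% (Dbp) to 13.8% (Per3), and within the TNF-α+NFL group from 0.815% (Nr1d2) to 7.03% (Dbp). Counting noise alone gives 2.98% for the most counted gene, Clock, and 6.15% for the least counted, Cry1. In the TNF-α+NFL group every gene but Cry1 and Dbp varied less than its own counting noise (Nr1d2 0.815% against 4.34%). The spread of those genes in that group, and the steadiness of Nr1d2, thus cannot be told apart from counting noise. For 8 of the 10 genes the TNF-α libraries were the more variable, against 62.7% of all genes tested. TNF-α replicate 1 was the highest library for 5 of the 10 genes (Per2, Per3, Cry2, Nr1d2 and Dbp) and the lowest for 0, whereas TNF-α replicate 3 was the lowest for 4. The summed estimated counts of the 10 genes still stayed between 5326 and 5562 in the 6 libraries.

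Ratios within a library do not depend on its depth, and were taken as a second view of the balance between the arms of the loop, as a description and with no test. The log2 ratio of the TPM level of Arntl to that of Nr1d1 was -0.34, -0.72 and -0.22 in the TNF-α replicates and -0.45, -0.26 and -0.41 in the TNF-α+NFL replicates. The TNF-α+NFL values fell inside the range of the TNF-α group, and the means differed by 0.055, less than the SD of 0.26 in the TNF-α group. The log2 ratio of Per1 to Dbp was -0.98, -0.84 and -1.068 in the TNF-α replicates and -0.64, -0.51 and -0.78 in the TNF-α+NFL replicates. Of the 9 ratios computed, the groups lay apart in 3, Per1 to Dbp, Clock to Dbp and Per1 to Per2. These ratios differed by 0.32, 0.22 and 0.29 on the log2 scale and hold the genes with the largest single differences. Per1 and Dbp recur among the 9 pairs, so the ratios partly repeat the differences of single genes. The share over all gene pairs was not computed, and 16.8% of single genes tested lay apart.

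On the deposited TPM scale, which allows for transcript length, Dbp was the most abundant of the 10 genes, at a mean level of 34.0 ± 2.2 (SD over the 6 libraries), and Per2 the least, at 4.78 ± 0.392. The mean levels thus spanned 7.12-fold. Nr1d1 followed at 20.2 and Per1 at 19.5, then Cry2 at 15.5 and Arntl at 15.3, then Clock at 11.8, Nr1d2 at 11.5, Per3 at 9.52 and Cry1 at 9.08. The ranges over the 6 libraries did not overlap between Dbp and Nr1d1, between Per1 and Cry2, between Arntl and Clock, or between Cry1 and Per2. The ranges of all other neighbours in this order overlapped. Nr1d2 still lay above Per3 in each of the 6 libraries, while in the other overlapping pairs the first gene was the higher in 4 of 6. Reads of Nr1d1 and Cry2 had fractional estimated counts in 6 of the 6 libraries, those of Per2 in 5 and those of Clock in 3 (more than 0.001 from a whole number), and RefSeq lists other genes that overlap the spans of these 4, including Thra for Nr1d1. It also lists one for Cry1, whose counts were fractional in 0 libraries. The levels of these 5 genes are less certain, since the strand setting of the counting is not given in the sources used here.

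**Figure D3:**
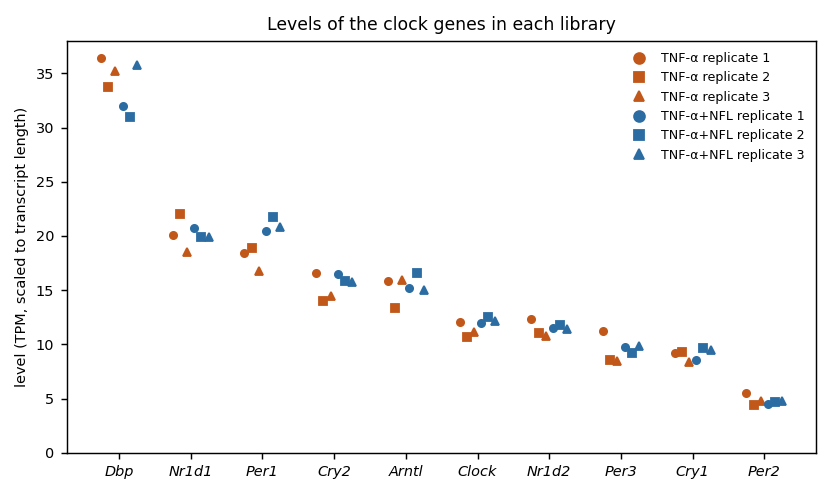
Level (TPM, y axis from 0) of each clock gene in the 6 libraries, ordered by the mean level and coloured by group (TNF-α orange, TNF-α+NFL blue). Dbp lies alone at the top and Per2 alone at the bottom, and within a gene the colours are mixed except for Per1.

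Other genes of the pathway were taken from lists written from general knowledge, with earlier results of these data known. Of 32 tested genes in the lists of other clock factors, clock kinases, ligases and cofactors, and clock outputs, 0 were called by edgeR at an adjusted p under 0.05 (0.611% of all genes tested), and 4 had an unadjusted p under 0.05 (11.1% of all). DESeq2, with an adjusted p for 18 of the 32, and limma-voom also called 0 (1.12% and 0.634% of all genes). They had 3 and 5 genes at an unadjusted p under 0.05 (5.93% and 11% of all). The median log2 fold change of the 32 was -0.0042, with 15 positive and 17 negative. Without TNF-α replicate 1, Gsk3b was called higher (log2 fold change 0.15) and Rbm3 lower (-0.14), in a fit that called 6.94% of all genes.

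Among 8 tested clock factors the smallest p values belonged to Ciart, Rora and Arntl2. Ciart, a repressor of the CLOCK and BMAL1 dimer and a strong clock output, was at a CPM of 5.13, 5.57 and 5.36 in the TNF-α replicates and 4.19, 3.99 and 3.87 in the TNF-α+NFL replicates. The groups lay apart, at a log2 fold change of -0.41 (SE 0.12, 95% interval -0.68 to -0.15, adjusted p = 0.19), from 76 to 110 estimated counts in a library. Rora, an activator that binds ROR elements, had a log2 fold change of 0.14 (adjusted p = 0.47), and Arntl2, the paralog of Arntl, of -0.26 (adjusted p = 0.59). Rorb and Hlf did not pass the filter on low counts. Npas2, the paralog of Clock named here after its values were seen, was at a mean TPM level of 37.96 against 11.8 for Clock itself.

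The kinases, ligases and cofactors had 17 tested genes. Gsk3b, a kinase that phosphorylates several clock proteins, had a log2 fold change of 0.12 (adjusted p = 0.25), Sirt1, a deacetylase that binds the dimer, of 0.16 (adjusted p = 0.39), and Fbxl21, a ligase of CRY proteins, of -0.33 (adjusted p = 0.54). Of the 7 outputs, Klf10, a Krüppel-like repressor, had a log2 fold change of -0.19 (adjusted p = 0.26), Klf15 of 0.15 (adjusted p = 0.46) and the cell cycle kinase Wee1 of 0.12 (adjusted p = 0.57).

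**Figure D4:**
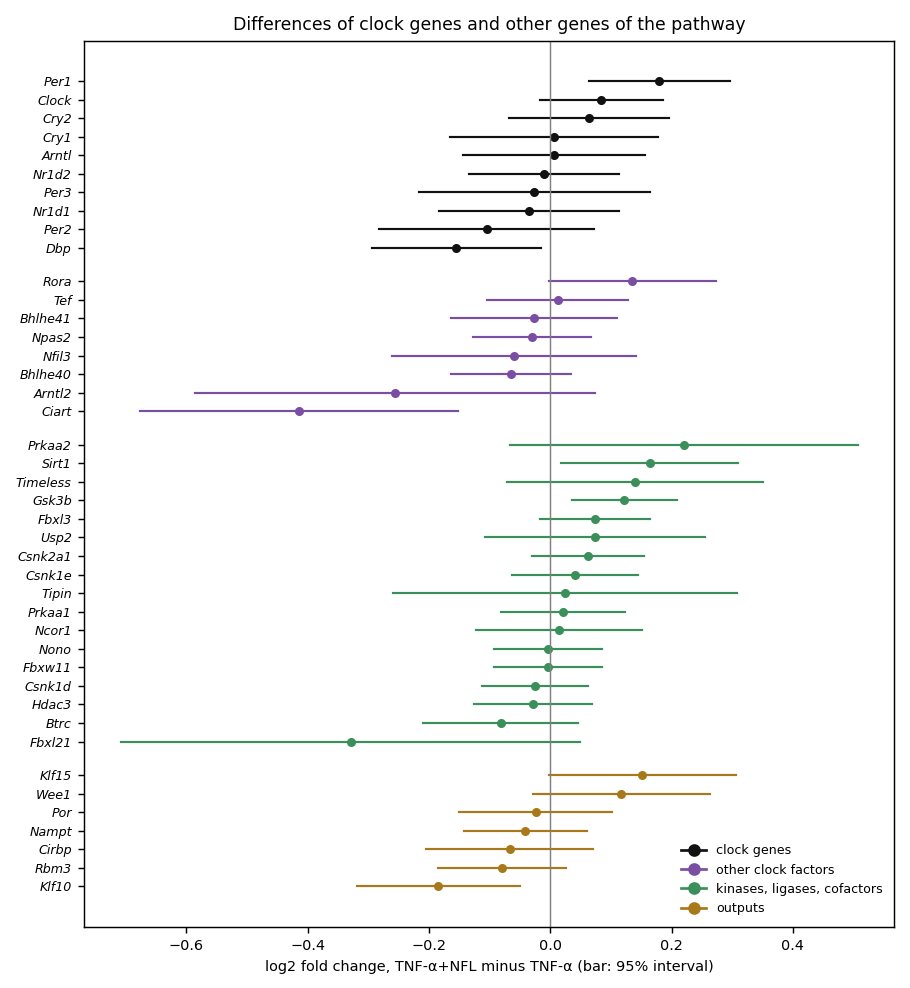
Log2 fold changes (points) with 95% intervals (bars, not adjusted for the number of genes) for the 10 clock genes and 32 other genes of the pathway, grouped by role. Most bars cross 0, and among the 10 clock genes those of Per1 and Dbp do not.

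Per1 also belongs to a list of 9 glucocorticoid-responsive genes, since its promoter region binds the glucocorticoid receptor in many cells. All 9 had positive log2 fold changes, with a median of 0.14, where 6385 of the 13250 genes tested were positive and the median was -0.0035. The list holds Per1 itself and was chosen with earlier results of these data known. These signs are a description and were not tested as a set. One of the 9 rose at an adjusted p under 0.05 from edgeR (0.611% of all genes tested were called), Zbtb16, which encodes a zinc finger repressor, and 4 of the 9 had an unadjusted p under 0.05 (11.1% of all). DESeq2, with an adjusted p for 8 of the 9, called 0 and limma-voom 1 (1.12% and 0.634% of all genes). Each had 4 at an unadjusted p under 0.05 (5.93% and 11% of all). Zbtb16 was at a CPM of 11.99, 10.7 and 10.6 in the TNF-α replicates and 13.8, 15.4 and 16.9 in the TNF-α+NFL replicates, with no overlap. The log2 fold change of Zbtb16 was 0.47 (SE 0.091, 95% interval 0.28 to 0.67, adjusted p = 0.036). Zbtb16 kept this call in 1 of the 6 fits that left out a library, that without TNF-α replicate 1 (adjusted p = 0.0015), and the adjusted p ran from 0.0015 to 0.26 over 13 alternatives, with none given by DESeq2, while its log2 fold change stayed between 0.40 and 0.54 with each library left out. Without TNF-α replicate 1, 3 of the 9 were called, in a fit that called 6.94% of all genes, the others being Klf9, a Krüppel-like factor (log2 fold change 0.26, adjusted p = 0.0025), and Nr3c1, the glucocorticoid receptor (0.17, adjusted p = 0.0032). The Zbtb16 estimated count was fractional in 6 of the 6 libraries.

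**Figure D5:**
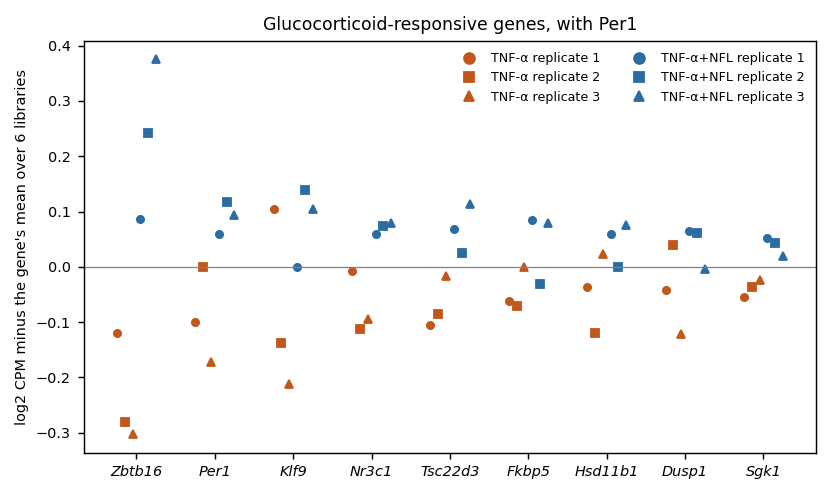
Log2 CPM of each glucocorticoid-responsive gene in each library, minus its mean over the 6 libraries (y axis), ordered by log2 fold change, with TNF-α in orange and TNF-α+NFL in blue. The groups lie apart for 5 of the 9 genes, Per1 and Zbtb16 among them, against 16.8% of all genes tested.

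Immediate early genes, which share CREB and SRF inputs with Per1 and Per2, had differences of both signs, 6 positive and 6 negative among 12 tested. None was called by edgeR at an adjusted p under 0.05 (0.611% of all genes tested). An unadjusted p under 0.05 was reached by 6, against 11.1% of all. DESeq2, with an adjusted p for 5 of the 12, and limma-voom also called 0 (1.12% and 0.634% of all). They had 1 and 6 genes at an unadjusted p under 0.05 (5.93% and 11% of all). Fosl1, an AP-1 subunit, had a log2 fold change of -0.25 (adjusted p = 0.080), Fos of 0.22 (adjusted p = 0.31) and Egr3 of 1.095 (adjusted p = 0.32) at a CPM under 1. Fosl1 passed the threshold with no filter on low counts (adjusted p = 0.039, with 0.734% of all genes called) and without TNF-α replicate 1 (adjusted p = 0.00032, with 6.94% called). Egr3 had estimated counts of 10, 4 and 4 in the TNF-α replicates and 12, 14 and 13 in the TNF-α+NFL replicates, so it passed the filter on low counts through the latter group. Its call without TNF-α replicate 1 (log2 fold change 1.68, adjusted p = 0.038) rests on these few counts, and in that fit 2 of the 12 were called.

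The label of the cells was checked against markers. Of 15 chondrocyte markers, 10 reached a mean TPM level of 1 in the 6 libraries, but the defining Col2a1, Acan and Sox9 were low, at 7.72, 5.11 and 4.42 in the TNF-α group and 9.23, 5.55 and 4.66 in the TNF-α+NFL group, while Prg4 (lubricin, of the joint surface) and Col11a1 were at 1140 and 419.8 in the TNF-α group and made up nearly all of the sum of the list. In the TNF-α group the 9 genes of the fibroblast list lay between 17.99 (Fbln1) and 2453 (Thy1), with Dcn at 70.0 and Col1a1 at 1223. In the TNF-α+NFL group Fbln1 and Thy1 were again the ends, at 17.66 and 2677, with Dcn at 70.53 and Col1a1 at 1308. The fibroblast list summed to 4852.5 to 5395.3 in the TNF-α group and 5319.2 to 5496.6 in the TNF-α+NFL group. The summed chondrocyte markers ranged from 1391 to 1822 in the TNF-α group and from 1532 to 1687 in the TNF-α+NFL group, and 0 of the 23 tested chondrocyte and fibroblast markers were called by edgeR (0.611% of all genes), with 4 at an unadjusted p under 0.05 (11.1% of all). DESeq2, with an adjusted p for 10 of the 23, and limma-voom each called 1, Col11a1 (1.12% and 0.634% of all genes were called). This cartilage collagen chain was higher in the TNF-α+NFL group by 0.22 on the log2 scale in both fits (edgeR adjusted p = 0.052). Markers of other cell types of fat tissue were low: the endothelial markers summed to at most 0.41 in any library, the blood markers to at most 0.71, and the adipocyte genes Adipoq and Plin1 stayed under 1. The adipocyte list summed to 36.2 to 37.6 in the TNF-α group and 38.2 to 43.4 in the TNF-α+NFL group, most of it Fabp4 (30.4 and 33.8 in the 2 groups) and the rest mainly Lipe and Cfd, and the macrophage list to 36.4 to 45.96 and 33.7 to 43.04, nearly all of it Cd68, with C1qb at 0. Their part in the clock values was not tested.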

How the data were processed

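The 6 libraries held single-end 50-base reads. The authors deposited estimated counts per gene, not normalized, beside FPKM values, scaled for length and mapped reads, and TPM values, scaled for length to a common sum. The submitters' processing notes name HISAT2 2.0.4, Bowtie2 2.2.5, RSEM 1.2.12 and build Rnor_6.0, without their roles. Of the 18420 identifiers, 17068 matched RefSeq of GRCr8, used for names, neighbours and promoter windows.

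Counts were rounded (27.3% to 28.0% of genes in a library were fractional), filtered by filterByExpr, scaled by TMM and fitted across all genes with edgeR 4.0.16 (robust quasi-likelihood, two-sided, Benjamini-Hochberg) in R 4.3.3. Standard errors (SE) were the fold change over the root of its F statistic. The study calls the replicates biological, but whether they were separate cultures or animals is not given in the sources used here, so p-values measure the spread between these libraries. The biological coefficient of variation was 6.39%. Alternatives used other filters, DESeq2 1.42.0, limma 3.58.1, FPKM with pseudocounts of 1 and 0.1, a replicate block, other thresholds and each library left out. The fit was checked on simulated counts.

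All 10 clock genes are named. Of each wider list, genes past an adjusted p of 0.05 are named, or else the 3 with the smallest p. Genes and lists were chosen with earlier results of these data known.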

Additional observations from a re-analysis of the deposited data

How the results depend on the processing

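None of the 10 clock genes passed an adjusted p of 0.05 under any alternative run, and none reached 0.10 in the fit reported above. Per1 came nearest, at 0.055 without TNF-α replicate 1, and ran up to 0.56. Clock, Per1, Per2, Cry2 and Dbp kept their direction throughout. With 1 library left out, Clock ran from 0.058 to 0.12, Per1 from 0.14 to 0.23, Per2 from -0.16 to -0.036, Cry2 from 0.025 to 0.12 (for both, the ends came from leaving out TNF-α replicates 2 and 1) and Dbp from -0.21 to -0.12. The other 5, with differences near 0, did not. With 1 library left out, Arntl ran from -0.052 (without TNF-α replicate 2) to 0.043, Cry1 from -0.028 (without TNF-α replicate 3) to 0.061, Nr1d1 from -0.082 to 0.042 (without TNF-α replicate 2), Nr1d2 from -0.034 to 0.031 (without TNF-α replicate 1), and Per3 from -0.085 to 0.092 (without TNF-α replicate 1). Arntl also turned without TNF-α+NFL replicate 2, Cry1 without TNF-α+NFL replicates 2 and 3, and Per3 without TNF-α+NFL replicate 2, and on FPKM with pseudocounts of 1 and 0.1 (0.0086 and 0.011). The cause was not tested.

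Over all genes, 54 were higher and 27 lower. There were 84 and 48 with no filter, 95 and 53 with the DESeq2 Wald test, 3 and 3 on FPKM with a pseudocount of 1, 7 and 6 with 0.1, 100 and 64 at an adjusted p under 0.10, and 16 and 7 under 0.01. Without 1 library the range was 5 to 460 and 0 to 470, the highest without TNF-α replicate 1. With that library out, 1 gene of the wider clock lists was higher and 1 lower, and 0 and 0 without any other library. Same-numbered libraries did not deviate together (correlations 0.030, -0.024 and 0.10), and with a replicate block there were 25 and 9 genes, 0 of them clock genes, and Zbtb16 was no longer past the threshold (adjusted p = 0.083). DESeq2 gave no adjusted p for Arntl, Per2, Per3, Cry1, Nr1d1, Dbp and Zbtb16.

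With 3 libraries a group, values inside the 95% interval of a clock gene could not be told apart.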
